A study of Canis lupus familiaris with 6 samples.

Results

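The genes described here are 10 immediate early and AP-1 factor genes: FOS, FOSB, FOSL1 and FOSL2 of the FOS family, JUN, JUNB and JUND of the JUN family, and EGR1, IER3 and MYC. They were selected by gene symbol and not by a measured value. All 10 were found among the 35993 genes of the deposited gene table, and all 10 were among the 14708 genes that passed the filter on low counts and were tested. CPEK cells are a commercial line of canine progenitor epidermal keratinocytes, wild type by the labels, and were grown with fetal bovine serum in every dish. The 3 dCAMP libraries came from cells exposed directly for 30 s to CAMP, an argon plasma ignited by microwaves, and the 3 gas libraries came from cells exposed for 30 s to the gas without plasma. In both groups the medium was renewed after 15 min, and total RNA was collected a further 24 h later, so the libraries hold a single late time point and no untreated cells. The study used the line over a range of passages and mentions no scratch for the dishes that were sequenced. The labels do not say whether the 3 libraries of a group came from separate experiments. The study states independent experiments for its data in general and does not name the RNA-Seq there. The p-values measure the spread between these libraries, which may be technical.

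Immediate early genes are switched on within minutes of a growth factor, stress or wound signal, without new protein synthesis, mainly through MAP kinases and the serum response factor, and their mRNAs are short-lived. FOS and JUN proteins pair through leucine zippers to form AP-1, which in keratinocytes drives genes of migration, matrix remodelling and differentiation. In skin, FOS and FOSB are the fast and transient members, whereas FOSL1, FOSL2, JUNB and JUND are kept at a steadier level in cycling and differentiating epidermis. EGR1 is a zinc finger factor of the same early wave, IER3 is a short-lived regulator of survival signalling, and MYC drives growth and ribosome production.

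For none of the 10 genes did the difference between dCAMP-treated and gas-treated cells exceed the spread between libraries. With edgeR's quasi-likelihood test and Benjamini-Hochberg adjustment over all genes tested, 0 of 10 had an adjusted p under 0.05, beside 0% of all genes tested. At an unadjusted p under 0.05 the count was also 0 of 10, whereas 20.7% of all genes tested passed, 6.81% higher and 13.9% lower in dCAMP-treated cells. The thresholds of the study's methods are a change of at least 2-fold and an unadjusted p under 0.05. With edgeR they were met by 0 of 10 and by 1.09% of all genes tested. The study used DESeq2, with which 0 of 10 met them here as well, and its Results name an adjusted p instead. DESeq2, run as an alternative, also gave 0 of the 10 genes an adjusted p under 0.05, beside 301 of the 20284 genes in that fit. It set no adjusted p for FOSB. The dCAMP and gas libraries overlapped in all 10 genes, while the groups did not overlap in 39.9% of all genes tested, with dCAMP lower in 20.9% and higher in 19%. The median log2 fold change, dCAMP minus gas, was −0.08 over the 10 genes and 0.03 over all genes tested.

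The libraries held 43084921 to 54082634 counts, of which the 10 genes took 0.0780 to 0.122%. The gas libraries varied more than the dCAMP libraries: the median SD of log2 CPM over all genes tested was 0.238 among gas and 0.0846 among dCAMP libraries, where CPM scales a count to the normalized size of its library. All 8 keratinocyte markers were detected, with summed levels of 47469 to 57319.8 CPM in gas and 44117.9 to 46970.6 CPM in dCAMP libraries. The summed markers of fibroblasts were 6.51 to 7.10 CPM and those of melanocytes 5.74 to 9.78 CPM. Those of endothelial cells were 15.6 to 24.7 CPM and those of leukocytes 1.47 to 3.01 CPM, all low beside the keratinocyte sums. PDGFRB, DCN, LUM, TYR, TYRP1, DCT, PECAM1, PTPRC and CD3E were at 0. Other markers of these lists were counted in every library, among them VWF (11.5 to 18.6 CPM), KDR (3.41 to 5.98), MITF (4.99 to 8.94) and COL3A1 (3.58 to 4.45). The endothelial sum was 15.6 to 18.4 CPM in gas and 18.8 to 24.7 CPM in dCAMP libraries, without overlap, and was not tested. The sums of fibroblast, melanocyte and leukocyte markers overlapped between the groups. In such bulk RNA, fewer cells that express a gene and less of its RNA per cell cannot be told apart.

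FOS (gene ID 490792; chromosome 8, 48330856 to 48334273 of CanFam3.1) encodes the founding, fast-induced partner of JUN. Its levels were 47.2, 29.9 and 23.9 CPM in gas libraries 1, 2 and 3, and 106, 24.7 and 39.5 CPM in dCAMP libraries 1, 2 and 3. The high value was that of 1 dCAMP library, and the other dCAMP libraries lay within the gas range. The means were 33.6 ± 12.1 CPM (SD, n = 3) in gas-treated cells and 56.7 ± 43.2 CPM (SD, n = 3) in dCAMP-treated cells. The log2 fold change was 0.75 (SE, the standard error, 0.56; 95% interval −0.59 to 2.1), with an adjusted p of 0.386 by edgeR's quasi-likelihood test. Without dCAMP library 1 it was −0.07, with an adjusted p of 0.915.

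FOSB (gene ID 484445; chromosome 1, 110088686 to 110092818) encodes a close relative of FOS and was the scarcest of the 10 genes. Its counts were 87, 75 and 42 in gas libraries 1, 2 and 3, and 201, 39 and 59 in dCAMP libraries 1, 2 and 3. The exact Poisson 95% interval of the count in dCAMP library 1, 174.2 to 230.8, lay apart from those in dCAMP libraries 2 and 3, 27.7 to 53.3 and 44.9 to 76.1, so the difference among these 3 libraries was larger than counting error. The means were 1.37 ± 0.546 CPM (SD, n = 3) in gas and 2.18 ± 1.88 CPM (SD, n = 3) in dCAMP libraries, for a log2 fold change of 0.67 (SE 0.62, 95% interval −0.84 to 2.17, adjusted p = 0.476). Again dCAMP library 1 stood highest, and the log2 fold change without it was −0.29.

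FOSL1 and FOSL2 encode the FOS relatives that lack the strong activation domain of FOS and persist after the early wave. FOSL1 (gene ID 483724; chromosome 18, 51366719 to 51374411) had levels of 39.0, 33.3 and 29.5 CPM in the gas libraries and 29.3, 26.9 and 30.5 CPM in the dCAMP libraries. Gas library 3 lay within the dCAMP range and the other gas libraries above it. The means were 33.9 ± 4.76 CPM and 28.9 ± 1.85 CPM (SD, n = 3 each), and the log2 fold change was −0.23 (SE 0.13, 95% interval −0.55 to 0.09, adjusted p = 0.308). FOSL2 (gene ID 608412; chromosome 17, 22340469 to 22364994) was the steadiest gene, at 211, 185 and 194 CPM in gas and 196, 193 and 182 CPM in dCAMP libraries. Its log2 fold change was −0.05 (SE 0.08, 95% interval −0.25 to 0.16, adjusted p = 0.707), and its values overlapped almost completely.

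JUN (gene ID 609429; chromosome 5, 50966698 to 50968939) encodes the partner that gives AP-1 its strongest activity. Its levels were 50.9, 42.9 and 32.2 CPM in gas and 55.6, 34.4 and 38.6 CPM in dCAMP libraries, so both groups covered about the same range. The means of 42.0 ± 9.35 CPM and 42.9 ± 11.2 CPM (SD, n = 3 each) gave a log2 fold change of 0.03 (SE 0.24, 95% interval −0.55 to 0.61, adjusted p = 0.937). The sign of this value depended on the scaling, since upper-quartile factors, which moved the median of all genes tested from 0.03 to −0.06, gave −0.07. It was −0.20 without dCAMP library 1 and −0.18 without gas library 3.

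JUNB (gene ID 100856456; chromosome 20, 49358904 to 49360746) encodes a JUN protein with weaker activity than JUN and known roles in epidermal homeostasis. Its levels were 252, 199.8 and 154 CPM in gas and 195, 141 and 166 CPM in dCAMP libraries. Gas library 1 was the highest and dCAMP library 2 the lowest, and the log2 fold change was −0.27 (SE 0.20, 95% interval −0.76 to 0.22, adjusted p = 0.393). JUND (gene ID 609409; chromosome 20, 44737021 to 44738932) encodes the constitutive JUN protein, and its levels of 88.4, 99.9 and 81.5 CPM in gas and 88.8, 84.6 and 77.0 CPM in dCAMP libraries spanned a narrow range. Its log2 fold change was −0.11 (SE 0.11, 95% interval −0.38 to 0.16, adjusted p = 0.516).

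EGR1 (gene ID 481528; chromosome 11, 26046195 to 26049806) had the widest spread of the 10 genes within either group. Its levels were 150.4, 82.9 and 63.5 CPM in gas and 246, 44.1 and 101 CPM in dCAMP libraries. Both the highest and the lowest of the 6 values were thus those of dCAMP libraries. The means were 99.0 ± 45.6 CPM (SD, n = 3) and 131 ± 104 CPM (SD, n = 3), and the log2 fold change was 0.40 (SE 0.63, 95% interval −1.13 to 1.93, adjusted p = 0.674). Without dCAMP library 1 the value was −0.44.

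IER3 (gene ID 481708; chromosome 12, 529002 to 530328) had levels of 147, 126 and 90.0 CPM in gas and 118, 100.0 and 108 CPM in dCAMP libraries. All 3 dCAMP values lay inside the gas range, and the log2 fold change was −0.16 (SE 0.19, 95% interval −0.60 to 0.29, adjusted p = 0.573). MYC (gene ID 403924; chromosome 13, 25200772 to 25205309) had levels of 204, 171 and 151 CPM in gas and 166, 134 and 137 CPM in dCAMP libraries. Of the dCAMP libraries, 2 lay below all gas libraries and dCAMP library 1 lay above gas library 3, and the log2 fold change was −0.27 (SE 0.14, 95% interval −0.61 to 0.08, adjusted p = 0.294). This adjusted p was the lowest of the 10 genes.

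**Figure D1:**
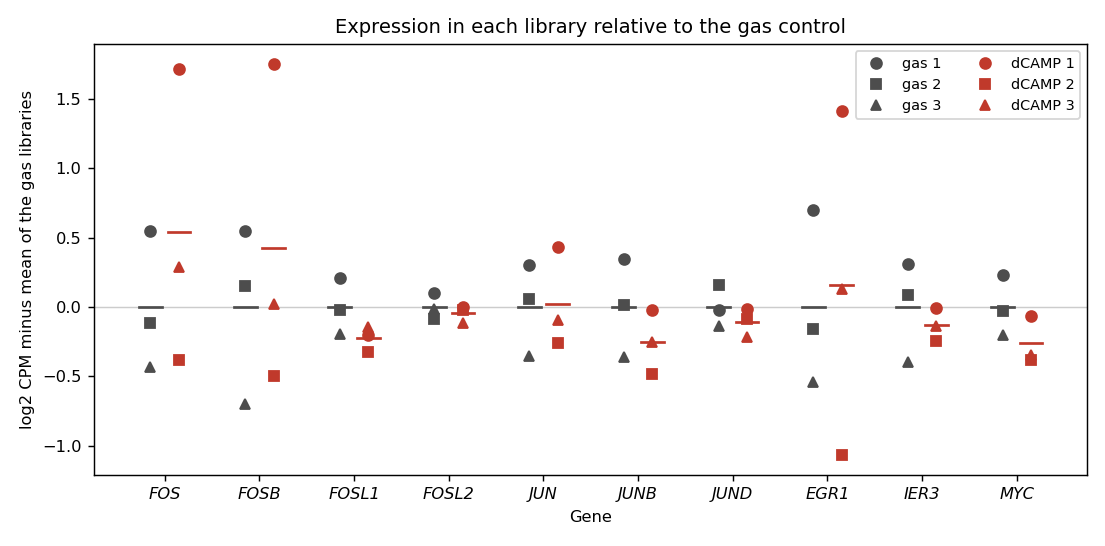
Level of each gene in each library as log2 CPM minus the mean of the 3 gas libraries (vertical axis), with gas libraries in grey, dCAMP libraries in red, a symbol for each replicate number and a bar at each group mean. FOS, FOSB and EGR1 are spread most, with dCAMP library 1 at the top, and the groups overlap in all 10 genes.

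How much change the data leave room for differed between the genes. For 7 genes (FOSL1, FOSL2, JUN, JUNB, JUND, IER3 and MYC) the 95% interval stayed within a 2-fold change in either direction. For the other 3, FOS, FOSB and EGR1, it reached past a 2-fold rise, and for EGR1 also past a 2-fold fall, so that a difference of that size was not detectable with the spread of these libraries. In the fit of all libraries, 4 genes had a mean higher and 6 a mean lower in dCAMP-treated cells. Without dCAMP library 1, all 10 log2 fold changes were below 0, with adjusted p-values of 0.470 to 0.915 by edgeR, a median of −0.23 beside 0.02 over all genes tested, and 48.6% of all genes below 0.

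Without gas library 3, 33.1% of all genes tested and 0 of the 10 genes had an adjusted p under 0.05. The lowest adjusted p among the 10 was then 0.0517. At an unadjusted p under 0.05, 4 of the 10 passed in that fit, FOSL1, JUNB, IER3 and MYC, each lower in dCAMP-treated cells. Of all genes tested, 49.2% passed that threshold without gas library 3, and 25.5% were lower. With limma's voom and sample quality weights, which give the more variable libraries less weight, 60.8% of all genes tested passed at an adjusted p under 0.05, and 28.2% were lower. Of the 10 genes, 4 passed in that fit and were lower in dCAMP-treated cells: FOSL1 (log2 fold change −0.19, adjusted p = 0.0233), JUND (−0.25, adjusted p = 0.00797), IER3 (−0.19, adjusted p = 0.0462) and MYC (−0.22, adjusted p = 0.0406). No gene of the 10 passed as higher in either fit. Of all genes tested, 32.6% were higher at an adjusted p under 0.05 with voom weights. Without gas library 3, 15% were higher at an adjusted and 23.8% at an unadjusted p under 0.05.

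**Figure D2:**
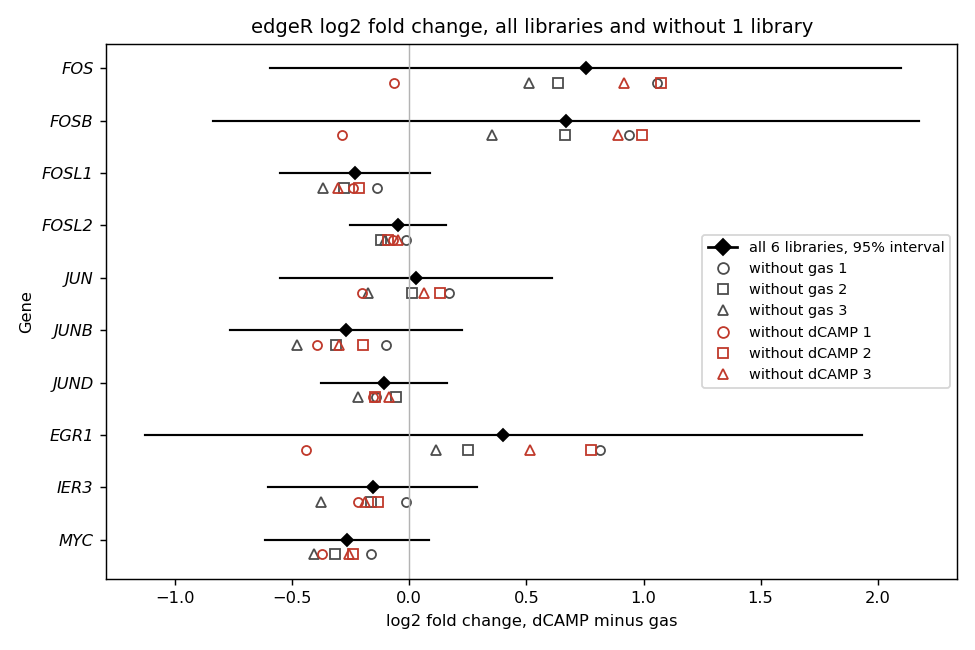
Log2 fold change of each gene, dCAMP minus gas, by edgeR (horizontal axis); diamonds with bars are the values over all 6 libraries with their 95% intervals, and open symbols are the values with 1 library left out. The intervals of all 10 genes cross 0, and without dCAMP library 1 (open red circles) FOS, FOSB, JUN and EGR1 move below 0.

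The feature that stood out was the level of FOS, FOSB and EGR1 in dCAMP library 1. It is given as a description, since it was noticed in the values. Among the dCAMP libraries, the highest level was 5.58 times the lowest for EGR1, 4.60 times for FOSB and 4.28 times for FOS, but 1.61 times for JUN, 1.38 for JUNB and 1.08 for FOSL2. Few genes had a larger SD of log2 CPM among the dCAMP libraries: 0.891% of all genes tested for EGR1, 0.945% for FOSB and 1.02% for FOS. The log2 level in dCAMP library 1 minus the mean of the other dCAMP libraries was 1.95 for FOSB, 1.88 for EGR1, 1.76 for FOS and 0.61 for JUN. This difference was above 1 in 3 of the 10 genes and in 167 of all genes tested, or 1.14%, while 122 genes were below −1.

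The related lists were read for the same library. Of 25 other immediate early genes tested, 13 were highest in dCAMP library 1, or 52%, as were 4 of the 10 genes, or 40%, and 12.5% of all genes tested. Among the 12 that were highest in another library were IER2, ZFP36, NFIL3 and PLK3, all highest in gas library 1. The log2 difference of dCAMP library 1 from the mean of the other dCAMP libraries was above 1 in only 1 of the 25, EGR2. It was also above 1 in 1 of 12 other bZIP partners, ATF3, and in 1 of 17 feedback inhibitors, DUSP5. No gene of the remaining lists was above 1, beside 1.14% of all genes tested. The genes of the lists with the largest differences, chosen after their values were seen, were EGR2, ATF3, DUSP5, DUSP1 and CYR61. EGR2, a close relative of EGR1, was counted 69, 39 and 19 times in gas libraries 1, 2 and 3 and 188, 8 and 28 times in dCAMP libraries 1, 2 and 3, a log2 difference of dCAMP library 1 from the other dCAMP libraries of 3.40. The same log2 difference was 1.04 for ATF3, a stress-induced bZIP factor, 1.02 for DUSP5 and 0.995 for DUSP1, both phosphatases that switch MAP kinases off, and 0.83 for CYR61, a matricellular target of serum and YAP signalling. The order dCAMP 1, then dCAMP 3, then dCAMP 2 was found in 7 of the 10 genes (FOS, FOSB, JUN, JUNB, EGR1, IER3 and MYC), in 19 of the 25 other immediate early genes and in 18.2% of all genes tested. The median difference was 0.32 over the 10 genes, 0.24 over the other immediate early genes and 0.0028 over all genes tested. The total of dCAMP library 1, 46479197 counts, was the largest of the dCAMP libraries and lay within the range of the gas libraries. It was followed by 44692385 counts in dCAMP library 3 and 43084921 in dCAMP library 2, the same order as above. The summed keratinocyte markers of dCAMP library 1, 46970.6 CPM, were close to the 46391.4 CPM of dCAMP library 2. The part of sample handling, depth or any other property of dCAMP library 1 in the result was not tested.

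**Figure D3:**
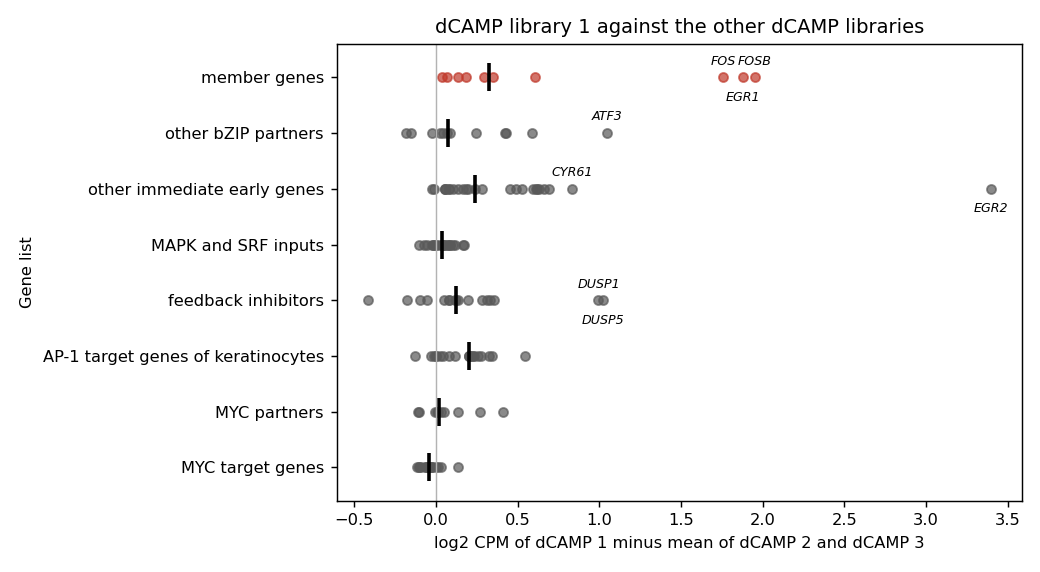
Log2 CPM of dCAMP library 1 minus the mean of dCAMP libraries 2 and 3 (horizontal axis) for the 10 genes in red and for 7 related gene lists in grey; each point is a gene and each black bar a list's median. FOSB, EGR1 and FOS lie at 1.95, 1.88 and 1.76, and EGR2 lies at 3.40.

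Among the gas libraries, gas 1 was above gas 3 in all 10 genes and in 50.8% of all genes tested. Gas 2 lay between them in 8 of the 10 genes and, in that same order, in 36.3% of all genes tested. The level in gas 1 was 2.37 times that in gas 3 for EGR1, 2.30 times for FOSB and 1.98 times for FOS, and 1.63 times for both JUNB and IER3. It was 1.58 times for JUN, 1.35 for MYC, 1.32 for FOSL1, 1.09 for FOSL2 and 1.08 for JUND. EGR1, FOSB and FOS thus had the widest spread of the 10 genes in both groups, with FOSL2 and JUND among the steadiest. Among the gas libraries this spread was less unusual. Of all genes tested, 17.9% had a larger SD of log2 CPM there than EGR1, 18.9% than FOSB and 24.7% than FOS. The gas libraries also differed by gene length: the median log2 difference of gas 1 from gas 3 was 0.16 among the shortest genes (58 to 1819 bases), 0.08 among those of middle length and −0.21 among the longest (3450 bases and over), with about equal numbers of genes in each class. The median log2 fold change, dCAMP minus gas, also differed between these classes: −0.08 for the shortest, −0.002 for the middle and 0.16 for the longest genes. FOSB, IER3 and MYC belong to the shortest class, FOSL2 to the longest and the other 6 genes to the middle class. The part of length in their levels and fold changes was not tested.

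To compare levels between the genes, FPKM values were used, which the authors normalized for transcript length. JUNB was the highest on average, with 96.8 ± 25.2 FPKM (SD, n = 3) in gas and 79.8 ± 12.4 FPKM in dCAMP libraries. MYC followed with 88.8 ± 15.2 and 73.5 ± 8.56 FPKM, and IER3 with 85.6 ± 21.8 and 76.4 ± 5.78 FPKM. These 3 genes took the first 3 places in all 6 libraries, with their order differing between libraries, so they were not separated beyond their spread. JUND stood at 41.4 ± 4.37 and 38.3 ± 2.63 FPKM, EGR1 at 30.3 ± 14.6 and 39.6 ± 31.4 FPKM, and FOSL2 at 28.7 ± 2.68 and 26.6 ± 1.36 FPKM. JUN (16.5 ± 3.98 and 16.8 ± 4.28 FPKM), FOS (14.0 ± 5.35 and 23.4 ± 17.7 FPKM) and FOSL1 (13.1 ± 2.09 and 11.1 ± 0.688 FPKM) overlapped with each other. FOSB was last in all 6 libraries, with 1.18 ± 0.491 and 1.87 ± 1.60 FPKM. FOS held place 5 of the 10 genes in dCAMP library 1 and places 7 to 9 elsewhere.

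**Figure D4:**
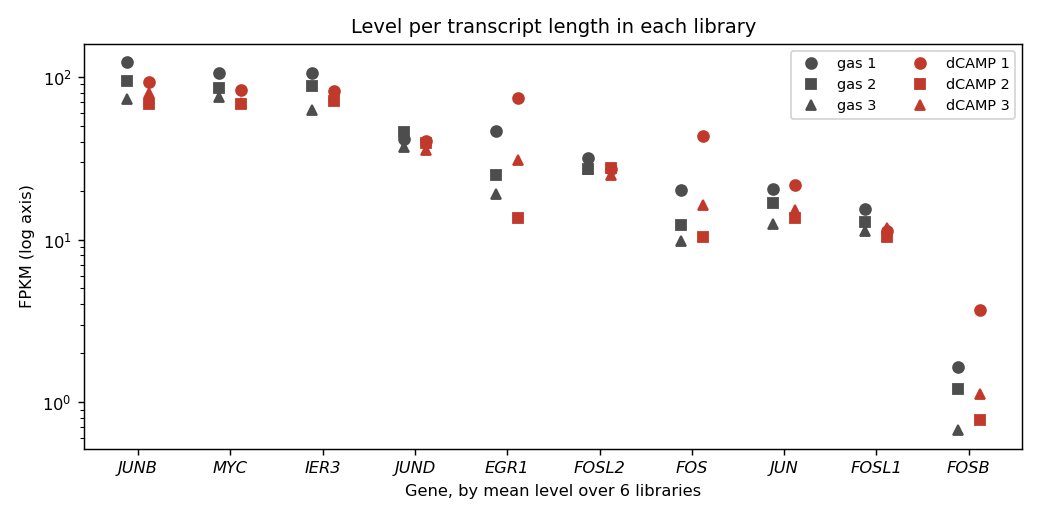
FPKM of each gene in each library on a log axis (vertical), with the genes ordered by their mean over 6 libraries; gas libraries are grey, dCAMP libraries are red, and symbols mark the replicate number. JUNB, MYC and IER3 hold the first 3 places and FOSB the last in every library.

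Summed over the 7 FOS and JUN genes, the FPKM values came to 253.7, 210.7 and 171.0 in the gas libraries and to 240.3, 169.6 and 184.1 in the dCAMP libraries, and the groups overlapped. Most of this mRNA was of the JUN family, and JUNB alone made up 48.4, 45.0 and 42.5% in gas and 38.5, 40.0 and 43.0% in dCAMP libraries. The FOS family made up 27.1, 25.3 and 28.6% in gas and 35.6, 29.0 and 29.5% in dCAMP libraries. The 3 dCAMP shares lay above the 3 gas shares, closest at 28.6% in gas library 3 and 29.0% in dCAMP library 2, and no test was made of this sum over chosen genes. FOS itself contributed 7.90, 5.85 and 5.71% in gas and 18.1, 6.08 and 8.90% in dCAMP libraries, and these shares overlapped between the groups. The shares describe mRNA and say nothing of which AP-1 dimers the cells held.

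**Figure D5:**
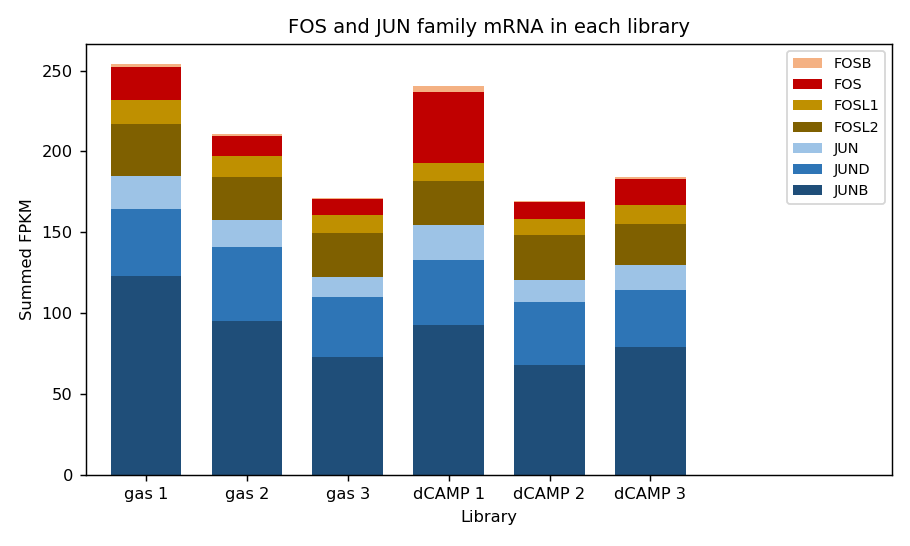
Summed FPKM of the 4 FOS family genes (warm colours) and the 3 JUN family genes (blue) in each library; the height of each part is that gene's FPKM. JUNB is the largest part in all 6 libraries, and FOS is largest in dCAMP library 1, at 18.1% of the sum.

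The transcript table lists 1 transcript for each of 8 genes, 3 for FOSL1 and 5 for FOSL2. For FOSL1, variant X3 held 70.7 to 79.6% of the counts and X1 20.4 to 29.2%, with similar shares in both groups, and X2 held 0 or 1 count. For FOSL2, the variants varied far more than the gene did. Variant X2 was given 2047, 3306 and 50 counts in the gas libraries, in the order of their numbers, against 52, 30 and 55 in the dCAMP libraries, while the counts of the gene were 8205 to 10295. Variant X3 had 1405, 1813 and 2131 counts in gas and 3413, 1622 and 3617 in dCAMP libraries, and the most abundant variant, X1, held 44.7 to 77.7% of the counts. These variants cover largely the same locus, from 22340469 to 22364994, and whether the values reflect transcripts or the sharing out of reads among overlapping models was not tested.

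The genes around the 10 were described with 7 lists of related genes. In none of the lists did a gene reach an adjusted p under 0.05 with edgeR on all 6 libraries, so the counts that follow are of genes with an unadjusted p under 0.05, to be set beside 6.81% higher and 13.9% lower of all genes tested. Of the 12 other bZIP partners, which can pair with FOS or JUN proteins, 0 were higher and 2 lower, with a median log2 fold change of −0.03. These were MAFG, a small MAF protein (log2 fold change −0.37 ± 0.14, SE), at an adjusted p of 0.233, and JDP2, a repressor that pairs with JUN (−0.46 ± 0.19), at an adjusted p of 0.240. Among the 25 other immediate early genes tested of 30, 3 were higher and 2 lower, and the median was 0.15, or −0.06 without dCAMP library 1. The lowest p-values were those of PTGS2, the inducible prostaglandin synthase (0.82 ± 0.22, adjusted p = 0.221), and NFIL3, a bZIP repressor (−0.67 ± 0.18, adjusted p = 0.221). PTGS2 was at 16.7, 14.2 and 21.5 CPM in gas and 37.4, 24.5 and 30.5 CPM in dCAMP libraries, and the groups did not overlap. NFIL3 was at 31.1, 26.7 and 25.9 CPM in gas and 18.8, 13.5 and 20.3 CPM in dCAMP libraries, again without overlap.

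Upstream of the 10 genes, the 21 MAPK and SRF inputs included 1 higher and 5 lower, with a median of 0.02. The lowest p-values were those of MAP2K2, which activates ERK (−0.42 ± 0.12, adjusted p = 0.221), and MAPK7, the ERK5 kinase (−0.40 ± 0.13, adjusted p = 0.221). Of the 17 feedback inhibitors tested of 19, 2 were higher and 3 lower, with a median of 0.04. The lowest p-values in this list were those of DUSP8, a phosphatase of stress kinases (−0.52 ± 0.15, adjusted p = 0.221), and NAB2, which represses EGR proteins (−0.39 ± 0.12, adjusted p = 0.221). DUSP1, which was higher at an unadjusted p under 0.05, had levels of 43.5, 32.8 and 27.7 CPM in gas and 92.0, 40.9 and 52.0 CPM in dCAMP libraries, with dCAMP library 1 highest as for FOS. It is named because FOS was most like it in the comparison of profiles.

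Downstream, the 20 AP-1 target genes of keratinocytes tested of 24 included 3 higher and 0 lower, with a median log2 fold change of −0.06. MMP13, a collagenase, was at 3.18 ± 0.137 CPM in gas and 4.15 ± 0.212 CPM in dCAMP libraries (SD, n = 3 each), a log2 fold change of 0.38 (adjusted p = 0.221). EREG, an EGF receptor ligand, had a log2 fold change of 0.26 (adjusted p = 0.236). For MYC, the 10 partners tested of 11 included 1 higher and 2 lower, with MXI1, a MYC antagonist, at 0.52 (adjusted p = 0.221) and MNT, another antagonist, at −0.35 (adjusted p = 0.229). The 15 MYC target genes, most of them for ribosome production, nucleotide and polyamine synthesis, had the lowest median of the lists, −0.35. In this list 9 of 15 were lower and 0 higher at an unadjusted p under 0.05: ODC1, FBL, CDK4, CAD, NME1, NOP56, SRM, PPAN and DKC1. SRM, spermidine synthase, was at 100.2, 93.1 and 81.8 CPM in gas and 58.2, 63.4 and 55.1 CPM in dCAMP libraries, a log2 fold change of −0.64 (SE 0.11, adjusted p = 0.221). DKC1, which modifies ribosomal RNA, was at 314, 283 and 247 CPM in gas and 189, 209 and 193 CPM in dCAMP libraries, a log2 fold change of −0.51 (SE 0.11, adjusted p = 0.221). SRM and DKC1 were named for the lowest p-values of the list. The groups did not overlap in 9 of the 15 genes with dCAMP lower, these 2 included. They also did not overlap in 1 gene with dCAMP higher, LDHA. The shares of all genes tested were 20.9% lower and 19% higher. Of the 15, 5 had a log2 fold change above 0. The groups overlapped in MYC itself. The median of the MYC target genes was −0.34 without dCAMP library 1, −0.31 without gas library 1 and −0.44 without gas library 3. Without gas library 3, 10 of these 15 genes had an adjusted p under 0.05, 9 of them lower, beside 33.1% of all genes tested, 18.1% lower, and 0 of the 10 genes.

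Profiles were also compared over the 6 libraries, by the mean absolute difference of log2 CPM after each gene was centred, between each of the 10 genes and the 120 list genes tested. The nearest to FOS was DUSP1, at 0.25, to FOSB DUSP5, at 0.29, and to EGR1 also DUSP5, at 0.32. The distances were smaller for the steadier genes, whose values leave less room to differ. They were 0.02 for FOSL1 and GADD45B, 0.07 for JUN and TRIB1, and 0.08 for JUNB and MAPK3. JUND was nearest to IER5, at 0.07, IER3 to KRT16, at 0.05, and MYC to SRF, at 0.05. The values share libraries and depth and are given without a test.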

How the data were processed

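The authors removed adapters and duplicates (FastQC 0.11.7, Trimmomatic 0.38), mapped reads to CanFam3.1 (HISAT2 2.1.0) and summarized known transcripts with StringTie 2.1.3b; the annotation release was not given in the sources used here. They deposited whole-number read counts per gene and transcript and FPKM values; the 6 TPM columns were not used. Poisson intervals cover counting error only. Gene positions were read from the transcript table.

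Gene counts were analysed with R 4.3.3 and edgeR 4.0.16 (TMM, filterByExpr, quasi-likelihood test, prior count 2, Benjamini-Hochberg over 14708 genes). Alternatives used DESeq2 1.42.0, limma 3.58.1 (voom weights, or log2 of FPKM plus 1 or plus 0.1), other factors and filters, the replicate number as a block, and leaving out each library. In simulated counts for these genes with 200 changed 3-fold, edgeR recovered 97.0% at a dispersion of 0.05, with 4 false calls. The simulation gave every library the same dispersion, whereas the gas libraries varied more than the dCAMP libraries. Its recovery therefore does not give the share of changes detectable in these data. The text names the 10 genes, the 2 lowest p-values of each list and the nearest profiles, except that of FOSL2, which is not reported here; MYC target genes below the threshold, EGR2, ATF3 and CYR61 were added after their values were seen. The genes and lists were chosen with earlier results of these data known.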

Additional observations from a re-analysis of the deposited data

How the results depend on the processing

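Of 160 recomputed log2 fold changes of the 10 genes, 149 kept their sign and their side of an adjusted p of 0.05. The 149 include FOSB with DESeq2, which kept its sign but had no adjusted p. Without dCAMP library 1 the value turned to −0.067 for FOS, −0.29 for FOSB, −0.20 for JUN and −0.44 for EGR1, and without gas library 3 that of JUN turned to −0.18. Over the fits without 1 library the values were −0.067 to 1.07 for FOS, −0.29 to 0.99 for FOSB, −0.20 to 0.17 for JUN and −0.44 to 0.81 for EGR1. Upper-quartile factors, the only setting changed in that fit, gave −0.072 for JUN and a median of −0.06 over all genes tested. Voom with sample quality weights gave 0.033 for FOSL2, and the cause was not tested. The count of the 10 genes with an adjusted p under 0.05 was 4 with voom weights, beside 60.8% of all genes tested, and 0 in every other fit. The count with an unadjusted p under 0.05 was 5 with voom weights, beside 64.9% of all genes tested. It was 1 with the replicate number as a block, beside 2775 of 14708 genes. Without 1 library it was 0 to 4, with 4 only without gas library 3, where 49.2% of all genes tested passed. Over all genes, the count with an adjusted p under 0.05 was 301 of 20284 with DESeq2. With DESeq2 restricted to genes counted in all 6 libraries it was 161 of 15304. It was 8944 of 14708 with voom weights and 3 of 14708 with limma on log2 of FPKM plus 0.1. Without 1 library it was 0 to 4953, the highest without gas library 3. The count with an unadjusted p under 0.05 was 9541 with voom weights and 1024 to 7374 without 1 library. DESeq2 gave FOSB no adjusted p.

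Deviations of same-numbered gas and dCAMP libraries correlated at 0.13, 0.02 and 0.05, and gas library 3 correlated best with dCAMP library 2, at 0.09. These correlations cannot tell whether same-numbered libraries shared a batch, which the labels do not say. With the number as a block, the SE fell from 0.56 to 0.31 for FOS and from 0.63 to 0.38 for EGR1. It rose from 0.133 to 0.145 for FOSL1 and from 0.085 to 0.095 for FOSL2. The block changed no adjusted call of the 10 genes. The 1 gene of the 10 with an unadjusted p under 0.05 was MYC, beside 2775 of the 14708 genes tested. With 3 libraries a group, an exact permutation test of a single gene could not go below a p of 0.1. Where a fit left a group with 2 libraries, its spread was estimated together with the other group.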
